A study of Saccharomyces cerevisiae with 9 samples.

Results

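The genes described here are 60 ribosome biogenesis factors of budding yeast, Saccharomyces cerevisiae, chosen by name from the 7122 genes of the deposited table. They are nucleolar factors that process ribosomal RNA, assemble the subunits or act as helicases in that work. By their textbook roles 23 serve the small subunit and 29 the large subunit, and 8 serve both or were assigned to neither. All 60 were in the table and all passed the filter on low counts, which left 6150 genes for testing. The study asked how loss of either of a pair of lipid enzymes changes gene expression. The enzyme from PAH1 dephosphorylates phosphatidate to diacylglycerol, and the kinase from DGK1 runs the opposite reaction. The 3 genotypes were sequenced with 3 libraries each: pah1Δ, a deletion of PAH1, dgk1Δ, a deletion of DGK1, and wild type (WT), the undeleted strain. All 9 samples were of the CEN.P.K prototrophic background, grown in minimal synthetic glucose medium until log phase. No source used here says how many isolates of each deletion strain were used, or whether the 3 libraries of a genotype came from separate cultures, and the p-values therefore cover only the spread among these libraries, which may be technical.

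Ribosomes are built in the nucleolus, where RNA polymerase I transcribes a long precursor that holds most of the ribosomal RNA. Processome subcomplexes, small nucleolar ribonucleoproteins, helicases, GTPases and methyltransferases fold, cut, modify and package this precursor into particles that mature into the small and the large subunit. In yeast the genes for these factors are known as one co-regulated group whose transcription follows growth, and many carry a pair of short promoter elements named PAC and RRPE.

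The libraries held 9205454 to 12795803 counted reads, and each of the 60 genes had between 560 and 8724 reads in every library. PAH1 had 0 reads in each pah1Δ library, against 454 to 722 reads in the dgk1Δ and WT libraries. DGK1 had 1, 2 and 1 reads in the dgk1Δ libraries, against 1030 to 1502 reads in the pah1Δ and WT libraries. The libraries differed in how level tracked gene length: across 5304 genes the Spearman correlation of each library's deviation with length was -0.44 in pah1Δ replicate 2 and -0.60 in WT replicate 1, and between -0.11 and 0.52 in the other 7 libraries. These correlations are across genes, which are not independent replicates. WT replicate 1 stood farthest from its group: the chi-square per degree of freedom over genes was 53.6 and 39.9 against WT replicates 2 and 3, which gave 3.55 with each other, and 4.97 to 24.1 within the other genotypes. No strand-marking step appears in the protocol, and reads of overlapping genes cannot be told apart. That may touch 7 of the 60 genes (RRP9, NOP56, NOP58, HAS1, NOP13, NOG2 and NOP4), and the other 53 overlap no listed gene. Overlap was taken over whole gene spans, introns included. For NOG2 it is with the listed gene snR191 over 274 bases, and whether these lie in the 532-base intron of NOG2 was not checked.

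Most of the 60 factors were called lower in pah1Δ than in WT, and none was called higher. Of the 60, 56 were called lower in pah1Δ than in WT, 0 were called higher and 4 were not called, where a call is a Benjamini-Hochberg adjusted p under 0.05 over all 6150 genes in edgeR's quasi-likelihood test. Among all genes tested, 775 (12.6%) were called lower and 1023 (16.6%) higher in this comparison. The median log2 fold change of the 60 was -0.41, a fold of 0.752, with quartiles of -0.50 and -0.34. All 60 values were below 0, against 3067 of the 6150 genes, whose median was 0.00 and quartiles -0.20 and 0.24. In 54 of the 60 every pah1Δ library lay below every WT library, which held for 17.4% of all genes tested. The small-subunit, large-subunit and shared groups gave 23 of 23, 25 of 29 and 8 of 8 called lower. Values are shares of the poly(A) RNA of whole cultures, so fewer cells of a kind and less RNA per cell cannot be told apart. When libraries were scaled by their totals alone, 44 of the 60 were called lower with a median of -0.33, and all genes split into 1343 higher and 480 lower with a median of 0.09.

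**Figure D1:**
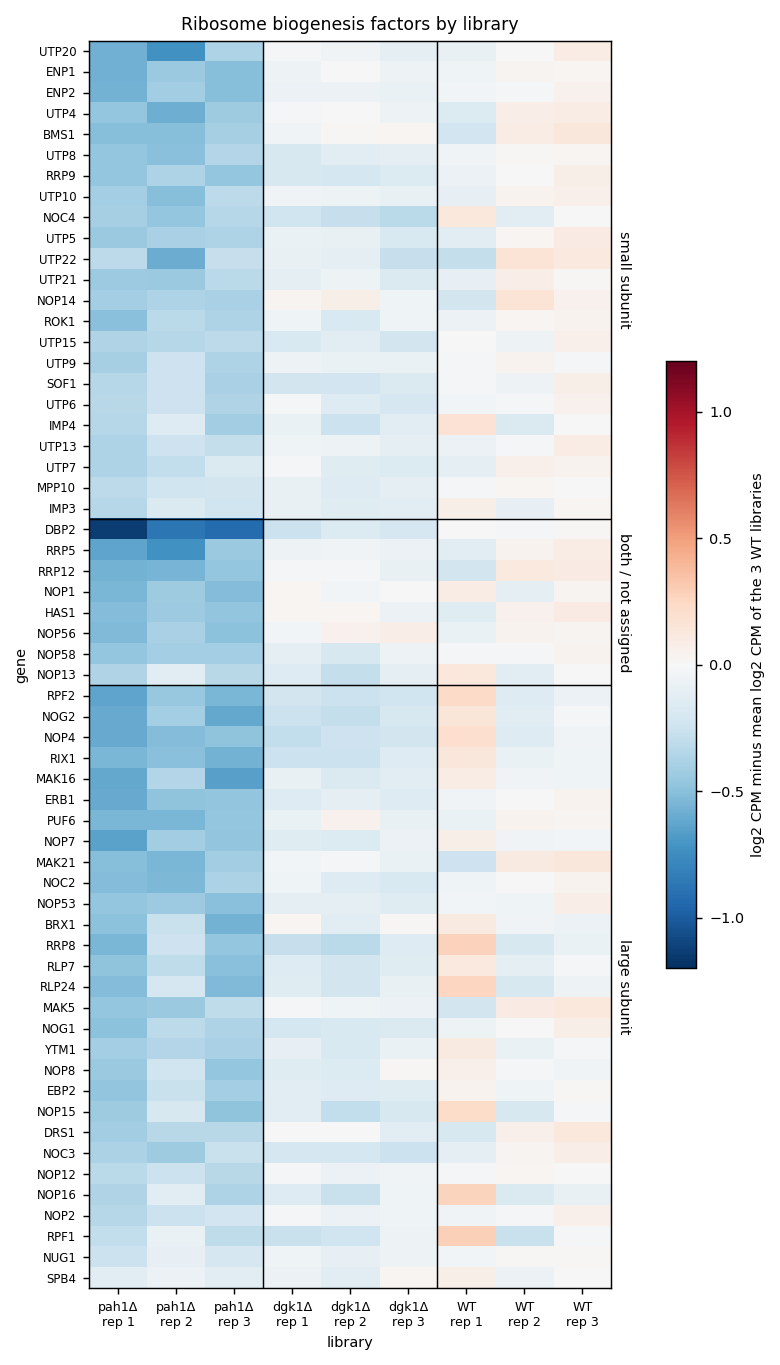
Each row is one of the 60 factors and each column one library, with the pah1Δ libraries at left, then dgk1Δ, then WT. Colour is log2 CPM (TMM-scaled counts per library total) minus the gene's mean log2 CPM in the 3 WT libraries. All 60 factors lay below the WT mean in each pah1Δ library, and 56, 52 and 54 did so in the dgk1Δ libraries.

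The pair of genes that mark the group, DBP2 and RRP5, moved most among the shared factors. DBP2 (YNL112W, chromosome XIV, 413639 to 416281, build R64) encodes a DEAD-box RNA helicase that acts in ribosomal RNA processing and in mRNA metabolism. It is one of 2 members with an intron, of 1002 bases. DBP2 had 334, 404 and 389 CPM in the pah1Δ libraries, 617, 659 and 640.0 CPM in the dgk1Δ libraries and 737, 728 and 744 CPM in the WT libraries, where CPM are counts scaled to a common library total with TMM factors. The pah1Δ libraries were low and did not overlap either other genotype, and the dgk1Δ libraries all lay below WT. Its log2 fold change in pah1Δ against WT was -0.97 (SE 0.0818, adjusted p = 1.23e-05), the largest fall of the 60, and it stayed between -1.03 and -0.88 in 15 alternative fits. In dgk1Δ against WT the value was -0.21 and was not called (adjusted p = 0.448). RRP5 (YMR229C, chromosome XIII, 725934 to 731123) encodes a large RNA-binding protein needed for both subunits. RRP5 had 319, 298 and 362 CPM in pah1Δ, 473, 479 and 470.3 CPM in dgk1Δ and 451, 508 and 524 CPM in WT. Its pah1Δ libraries were below all others, while dgk1Δ and WT overlapped. The log2 fold change in pah1Δ against WT was -0.60 (SE 0.0871, adjusted p = 0.000548), with a range of -0.68 to -0.50 over the same alternatives.

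The 300 bases before the start codon of 4 members are printed here because the factors moved together and most share the PAC and RRPE letters. DBP2 and RRP5 mark the group, NOP58 neighbours DGK1, and RPF2 had the largest fall among large-subunit factors in pah1Δ. Capitals mark the PAC core GATGAG or RRPE core AAAAATTT on either strand, with the longer forms GCGATGAG and GAAAAATTT where they match. Each sequence runs 5′ to 3′ on the gene's strand, from the RefSeq genome of build R64.
DBP2 at chrXIV:413339-413638, plus strand: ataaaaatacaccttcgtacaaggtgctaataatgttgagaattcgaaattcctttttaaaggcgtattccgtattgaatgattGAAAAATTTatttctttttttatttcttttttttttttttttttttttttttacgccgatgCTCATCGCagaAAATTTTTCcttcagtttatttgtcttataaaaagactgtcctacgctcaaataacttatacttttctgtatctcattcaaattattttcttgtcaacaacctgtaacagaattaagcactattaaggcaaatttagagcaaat
RRP5 at chrXIII:731124-731423, minus strand: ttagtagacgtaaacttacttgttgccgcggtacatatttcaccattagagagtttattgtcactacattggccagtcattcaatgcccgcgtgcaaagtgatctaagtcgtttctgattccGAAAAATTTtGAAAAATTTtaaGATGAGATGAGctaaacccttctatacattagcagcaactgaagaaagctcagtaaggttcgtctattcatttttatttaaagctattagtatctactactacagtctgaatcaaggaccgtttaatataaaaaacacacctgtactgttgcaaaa
NOP58 at chrXV:898361-898660, minus strand: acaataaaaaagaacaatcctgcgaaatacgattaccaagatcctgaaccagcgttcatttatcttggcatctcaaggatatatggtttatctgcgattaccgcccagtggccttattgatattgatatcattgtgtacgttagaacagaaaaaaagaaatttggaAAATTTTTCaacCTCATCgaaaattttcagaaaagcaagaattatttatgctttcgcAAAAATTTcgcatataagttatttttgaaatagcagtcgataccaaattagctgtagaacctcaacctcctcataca
RPF2 at chrXI:592541-592840, minus strand: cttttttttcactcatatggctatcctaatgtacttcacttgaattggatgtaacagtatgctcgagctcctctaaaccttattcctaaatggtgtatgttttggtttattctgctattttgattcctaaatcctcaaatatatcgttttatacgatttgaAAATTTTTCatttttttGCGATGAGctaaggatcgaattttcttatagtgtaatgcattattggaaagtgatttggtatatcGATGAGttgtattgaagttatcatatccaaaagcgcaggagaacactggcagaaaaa

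The PAC core stood in 55 of the 60 upstream regions (91.7%), against 1059 of the 5679 regions of the same length before all tested genes that could be read (18.6%). The RRPE core stood in 52 of the 60 (86.7%), against 894 of the 5679 (15.7%). The longer GCGATGAG, which contains the PAC core, was in 58.3% of the members and 4.24% of all genes, and the longer GAAAAATTT, which contains the RRPE core, in 56.7% and 6.89%. Both cores were present in 48 members (80.0%), against 331 of all genes (5.83%), and UTP22 was the 1 member with neither. By subunit, both cores stood before 15 of 23 small-subunit, 25 of 29 large-subunit and 8 of 8 shared factors. Counted from the start codon, the 88 PAC matches had a median distance of 110 bases and the 77 RRPE matches one of 132 bases. The RRP5 region holds a pair of overlapping PAC cores just after a pair of RRPE long forms. Among all genes with both cores, 180 of 331 (54.4%) were called lower in pah1Δ than in WT, with a median log2 fold change of -0.29. These 331 include 48 of the 60 members and 62 other assembly genes, and of the 221 genes outside both lists 87 (39.4%) were called lower, with a median of -0.22. Of all genes with the PAC core only 99 of 728 (13.6%) were called lower, of those with the RRPE core only 118 of 563 (21.0%) and of those with neither 356 of 4057 (8.77%), with medians of -0.03, -0.08 and 0.04. Within the 60, 44 of 48 members with both cores were called lower, 7 of 7 with the PAC core only and 4 of 4 with the RRPE core only. UTP22, with neither core, fell in pah1Δ all the same (-0.40, adjusted p = 0.0324), although its libraries overlapped at 229, 188 and 235 CPM in pah1Δ against 234, 319 and 309 CPM in WT. That call was lost without pah1Δ replicate 1 or 2 or without WT replicate 2 or 3, with library totals alone, with limma and with only the pair of genotypes fitted, and held in 7 of 15 alternatives. A match of letters describes the sequence and is not a measured site.

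**Figure D2:**
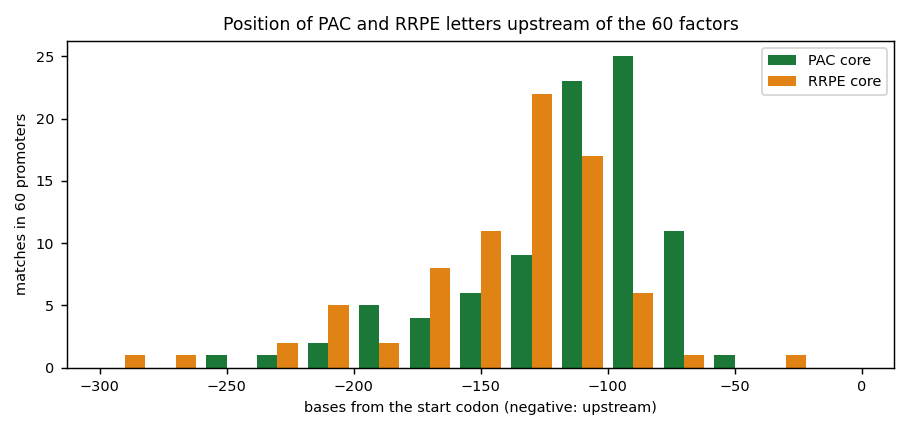
The x axis gives the distance in bases from the start codon (negative, upstream) and the bars count matches of the PAC core (green) and RRPE core (orange) on either strand in the 60 upstream regions. Most PAC matches lie nearer the start codon, with a median of 110 bases, than RRPE matches, with a median of 132 bases.

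Among the small-subunit factors all 23 fell in pah1Δ, with a median log2 fold change of -0.40 and a range from -0.55 (UTP20) to -0.25 (IMP3, called in 8 of 15 alternatives and lost without pah1Δ replicate 1 or 3 or WT replicate 3). The UtpA subcomplex, which binds the nascent precursor first, fell in 6 of 6 members with a median of -0.41. UTP4 of this complex had 219, 201 and 224 CPM in pah1Δ, 298, 302 and 289.5 CPM in dgk1Δ and 268, 319 and 321 CPM in WT. All pah1Δ libraries of UTP4 were below the others, and its log2 fold change against WT was -0.49 (SE 0.0816, adjusted p = 0.00126). UTP8, also of UtpA, fell by 0.44 on the log2 scale (adjusted p = 0.000638). The UtpB subcomplex, a scaffold that joins next, had smaller falls with a median of -0.31 in 3 of 3 members, among them UTP21 (-0.40, adjusted p = 0.00201) and UTP6 (-0.31, adjusted p = 0.0118). UTP6 was not called without pah1Δ replicate 1 (adjusted p = 0.0518), with library totals alone (0.0776) or with limma (0.0654).

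The Mpp10 complex, whose proteins hold the small-subunit precursor in its early fold, gave the smallest median of the role groups, -0.26, with 3 of 3 called. MPP10 had 204, 214 and 217 CPM in pah1Δ, 238, 227 and 233 CPM in dgk1Δ and 251, 257 and 252 CPM in WT. The 3 genotypes of MPP10 did not overlap, and it fell by 0.26 on the log2 scale in pah1Δ against WT (SE 0.0598, adjusted p = 0.00862; called in 13 of 15 alternatives, not with library totals alone or with limma). IMP4, with 108, 122 and 103 CPM in pah1Δ against 154, 121 and 137 CPM in WT, overlapped between those genotypes. Its call (-0.31, adjusted p = 0.0471) was lost without pah1Δ replicate 1 (0.141), pah1Δ replicate 3 (0.143), WT replicate 1 (0.0788) or WT replicate 3 (0.104). It was also lost with library totals alone (0.121), with limma (0.106), with a filter at a mean of 10 CPM (0.0626) and with only the pair of genotypes fitted (0.102), and held in 6 of 15 alternatives.

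UTP20, a very large scaffold protein of the processome, had 179, 162 and 207 CPM in pah1Δ, 263, 259 and 245 CPM in dgk1Δ and 251, 267 and 284 CPM in WT. Its pah1Δ libraries were all lower than the other 6, and dgk1Δ and WT overlapped; the log2 fold change in pah1Δ against WT was -0.55 (SE 0.0923, adjusted p = 0.0014). The other processome scaffold factors, UTP20 included, fell in 8 of 8 with a median of -0.41, among them ENP2 (-0.50, adjusted p = 0.000301). ENP1, a factor that stays with the small-subunit precursor to the cytoplasm, had 112, 123 and 118 CPM in pah1Δ, 161, 168 and 161 CPM in dgk1Δ and 162, 172 and 171 CPM in WT. It fell by 0.51 on the log2 scale in pah1Δ against WT (SE 0.0676, adjusted p = 0.00027) with no overlap. BMS1, the GTPase of the processome, fell by 0.48 (adjusted p = 0.00321).

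The shared factors had a median of -0.49, and the box C/D core among them fell in 3 of 3. These proteins carry the guide RNAs that direct ribose methylation. NOP1, the methyltransferase known as fibrillarin in animals, had 478, 518 and 487 CPM in pah1Δ, 708, 682 and 700.2 CPM in dgk1Δ and 743, 642 and 713 CPM in WT. The pah1Δ libraries of NOP1 were the lowest and dgk1Δ overlapped WT; its log2 fold change in pah1Δ against WT was -0.50 (SE 0.0766, adjusted p = 0.000768). NOP56 (-0.47, adjusted p = 0.000799) and NOP58 (-0.43, adjusted p = 0.000979), paired scaffold proteins of the same particle, also fell. NOP58 lies 695 bases from DGK1 on chromosome XV. NOP58 had 445, 463 and 461 CPM in pah1Δ, 567, 536 and 589.6 CPM in dgk1Δ and 603, 604 and 634 CPM in WT. In dgk1Δ NOP58 was lower than WT in each library without being called (-0.12, SE 0.0678, adjusted p = 0.692). RRP12 (-0.54), an export and assembly factor, and HAS1 (-0.48), a DEAD-box helicase, also fell. NOP13 fell least of the shared factors (-0.28, adjusted p = 0.0475), and its call held in 6 of 15 alternatives and was lost, among others, without pah1Δ replicate 1 or 3 or WT replicate 1 or 3.

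**Figure D3:**
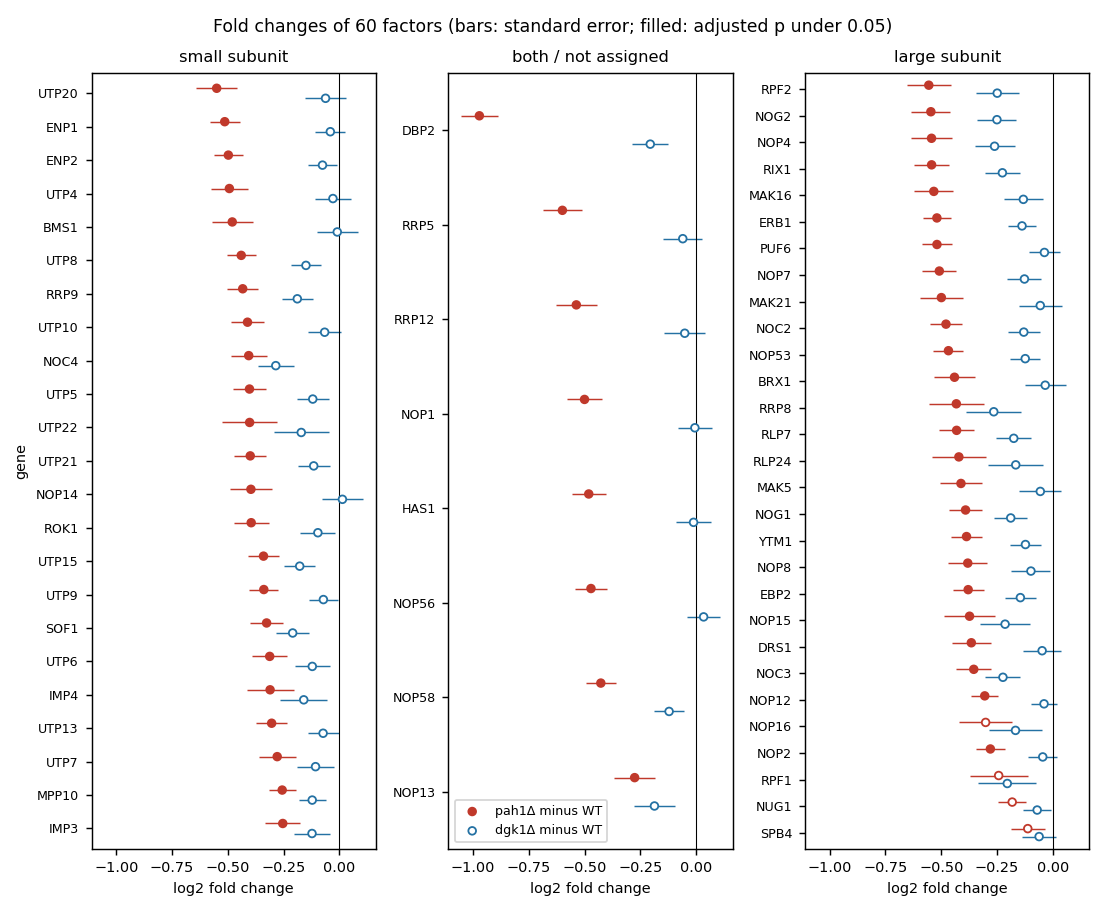
Each point is the log2 fold change of a factor in pah1Δ minus WT (red) or dgk1Δ minus WT (blue), with its standard error as a bar, in panels for small-subunit, shared and large-subunit factors. Filled points are called at an adjusted p under 0.05. DBP2 lies at -0.97 in pah1Δ, apart from the rest, whose lowest value is -0.60 (RRP5), and no dgk1Δ point is filled.

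All 29 large-subunit factors had log2 fold changes below 0 in pah1Δ against WT, and 25 were called lower. The median of the 29 was -0.42, with a range from -0.56 (RPF2) to -0.11 (SPB4). The Nop7-Erb1-Ytm1 complex, needed to process the large-subunit precursor, fell in 3 of 3 with a median of -0.51. ERB1 had 205, 222 and 224 CPM in pah1Δ, 280.2, 289 and 279.9 CPM in dgk1Δ and 302, 311 and 321 CPM in WT, with no overlap between the 3 genotypes. Its log2 fold change in pah1Δ against WT was -0.52 (SE 0.0637, adjusted p = 0.000164), and that of NOP7 was -0.51 (adjusted p = 0.000703). The Noc proteins, which escort early large-subunit particles, fell in 3 of 3 with a median of -0.48, among them MAK21 (-0.50, adjusted p = 0.00337) and NOC2 (-0.48, adjusted p = 0.000645).

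The methyltransferases NOP2 (-0.28, adjusted p = 0.00826) and RRP8 (-0.43, adjusted p = 0.0232), which modify bases of the large ribosomal RNA, both fell; NOP2 was not called with library totals alone or with limma. RRP8 had 191 CPM in WT replicate 1 against 139 and 149.9 in the other WT libraries, and its call was lost without pah1Δ replicate 1 (0.101) or replicate 3 (0.0714) and with only the pair of genotypes fitted (0.0618), and held in 11 of 15 alternatives. Among the GTPases, NOG2 fell by 0.55 (adjusted p = 0.00107) and NOG1 by 0.39 (adjusted p = 0.00267) on the log2 scale. NUG1 had 237, 265 and 247 CPM in pah1Δ, 274, 264 and 272 CPM in dgk1Δ and 277, 286 and 287 CPM in WT. Its pah1Δ libraries lay below WT but it was not called (-0.18, SE 0.064, adjusted p = 0.0547). Of the helicases, MAK5 (-0.41, adjusted p = 0.00826) and DRS1 (-0.36, adjusted p = 0.00967) fell, though neither was called with limma, nor DRS1 with library totals alone (0.0614). SPB4 had 116, 121 and 116 CPM in pah1Δ, 121, 116 and 129 CPM in dgk1Δ and 134, 121 and 127 CPM in WT. The genotypes of SPB4 overlapped, and its log2 fold change of -0.11 (SE 0.075, adjusted p = 0.299) was not called in any of the 15 alternatives.

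The 15 other large-subunit assembly factors all had values below 0, with a median of -0.43, and 13 were called lower. RPF2, which helps to bring the smallest ribosomal RNA into the large-subunit precursor, had 155, 176 and 165 CPM in pah1Δ, 208, 202 and 204 CPM in dgk1Δ and 282, 216 and 230.4 CPM in WT. The 3 genotypes of RPF2 did not overlap, although WT replicate 1 was high, and its log2 fold change in pah1Δ against WT was -0.56 (SE 0.0974, adjusted p = 0.00181). NOP4, an RNA-binding protein, fell by 0.54 on the log2 scale (SE 0.0899, adjusted p = 0.00127). NOP16 (-0.30, SE 0.118, adjusted p = 0.0797) and RPF1 (-0.24, SE 0.13, adjusted p = 0.193) were not called. RPF1 had 113, 131 and 112 CPM in pah1Δ and 116, 118 and 133 CPM in dgk1Δ, and in WT 169 CPM in replicate 1 but 116 and 137 in the others, so its WT spread was wide. NOP16 and RPF1 were called lower without WT replicate 2 (0.0365 and 0.0423), and NUG1 without pah1Δ replicate 2 (0.0272) or WT replicate 1 (0.025). With the length trend removed NOP16 (0.00341), RPF1 (0.0449) and NUG1 (0.0235) were called lower. NUG1 was also called lower with RLE factors (0.0316) and with DESeq2 (0.00763).

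Small- and large-subunit factors were both low in all 3 pah1Δ libraries. Relative to the WT mean, the small-subunit median was -0.41, -0.37 and -0.37 in pah1Δ replicates 1 to 3, -0.074, -0.114 and -0.121 in dgk1Δ and -0.066, 0.021 and 0.054 in WT. The large-subunit median was -0.48, -0.33 and -0.46 in pah1Δ, -0.14, -0.16 and -0.12 in dgk1Δ and 0.07, -0.04 and -0.01 in WT. For both subunits the pah1Δ libraries lay below every other library, and the dgk1Δ libraries below every WT library. The small-subunit minus the large-subunit median was 0.04 ± 0.07 in pah1Δ, 0.04 ± 0.03 in dgk1Δ and -0.00 ± 0.11 in WT (SD, n = 3 each). In both deletions it was smaller than its spread between WT libraries. That spread rests on WT replicate 1, at -0.13, against 0.07 and 0.06 in WT replicates 2 and 3. The WT mean lies near 0 by construction, because each gene is measured from its own WT mean. In pah1Δ minus WT the difference between subunits was 0.02, and 0.03 once the trend with gene length had been removed. In pah1Δ minus dgk1Δ it moved more, from 0.015 to 0.064, and in dgk1Δ minus WT from 0.017 to 0.012. Small-subunit factors were longer, with a median of 1782 bases against 1461 bases for large-subunit factors. The 30 shorter and the 30 longer members had medians of -0.40 and -0.42 in pah1Δ minus WT. They differed more in the other comparisons. In dgk1Δ minus WT the medians were -0.14 for the shorter and -0.07 for the longer members. In pah1Δ minus dgk1Δ they were -0.26 and -0.32, with 16 of the 30 shorter and 25 of the 30 longer members called lower. Whether length itself underlies these differences was not tested. With the length trend removed, 59 of the 60 were called lower in pah1Δ against WT. That fit also called more of all genes, 1148 lower and 1401 higher, against 775 and 1023 with the trend left in.

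**Figure D4:**
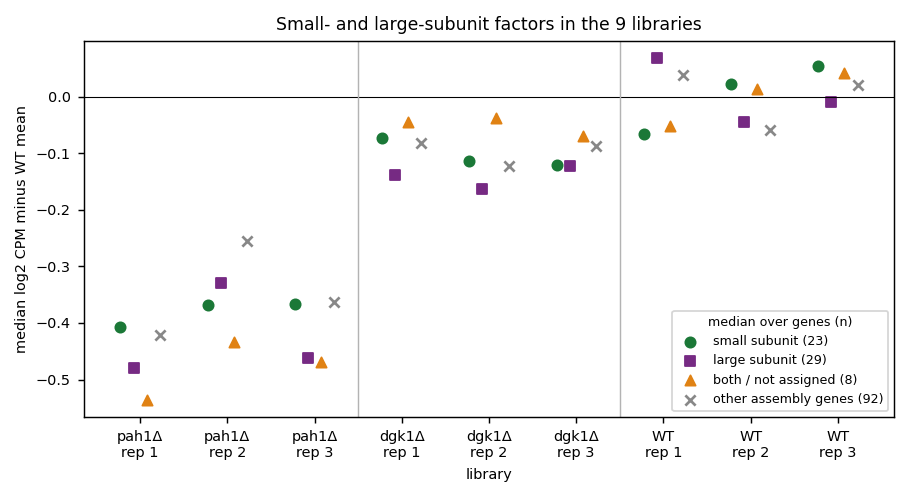
The y axis is the median over genes of log2 CPM minus the WT mean, for small-subunit (circles), large-subunit (squares) and shared factors (triangles) and for 92 other assembly genes (crosses), in each of the 9 libraries. In pah1Δ the 3 member groups lie between -0.54 and -0.33, and in dgk1Δ between -0.16 and -0.04.

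Summed over the 60, the factors took 1.25% ± 0.04 of all counted reads in pah1Δ, 1.52% ± 0.02 in dgk1Δ and 1.61% ± 0.08 in WT (SD, n = 3 each). Per length, in FPKM (reads scaled to exonic length and library total) as the authors computed it, the median member stood at 96.4 in pah1Δ, 114 in dgk1Δ and 125 in WT. Shared factors stood highest, with medians of 201, 292 and 291 FPKM in pah1Δ, dgk1Δ and WT, then large-subunit factors (124, 144 and 153), then small-subunit factors (71.3, 78.2 and 85.9). NOP1 had the highest level of the 60 in all 3 genotypes, at 520.5 ± 22.7 FPKM in pah1Δ, 701 ± 13.3 in dgk1Δ and 691 ± 32.5 in WT (SD, n = 3 each). UTP20 had the lowest in all 3, at 25.2 ± 2.96 FPKM in pah1Δ, 33.9 ± 1.56 in dgk1Δ and 34.9 ± 3.29 in WT (SD, n = 3 each). DBP2 ranked 9 in pah1Δ, at 237 ± 21.5 FPKM, and 3 in both others, at 385 ± 13.4 FPKM in dgk1Δ and 437 ± 17 in WT (SD, n = 3 each). Subunits of some complexes had like levels: the highest UtpB level was 1.09, 1.03 and 1.06 times the lowest in pah1Δ, dgk1Δ and WT, and the highest Mpp10-complex level 1.07, 1.08 and 1.10 times the lowest. In UtpA the span was wider, at 1.81, 1.75 and 1.80 times.

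**Figure D5:**
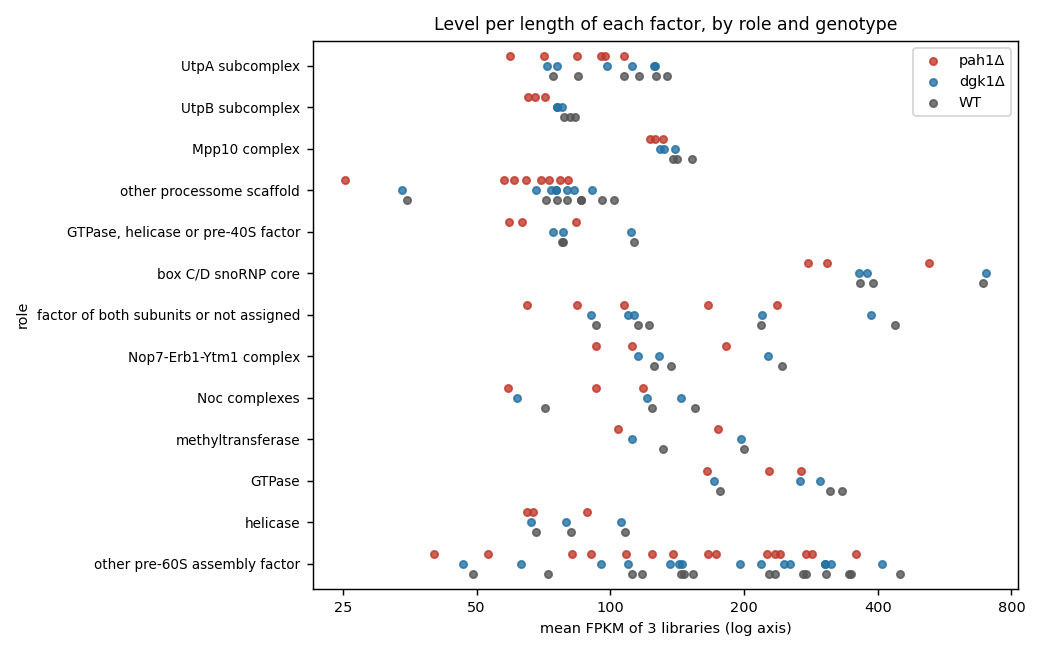
Each point is the mean level of one factor over 3 libraries, in FPKM on a log axis, by role (rows) and genotype (colour). Subunits of the UtpB and Mpp10 complexes lie close together in each genotype, while UTP20 (25.2, 33.9 and 34.9 FPKM in pah1Δ, dgk1Δ and WT) lies lowest of all.

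None of the 60 factors was called in dgk1Δ against WT, where 101 of all genes (1.64%) were called higher and 17 (0.276%) lower. By unadjusted p under 0.05 edgeR gave 12 of the 60, all of them lower, DESeq2 gave 20 and limma on log2 FPKM gave 8. Neither DESeq2 nor limma called any of the 60 after adjustment. All genes were not counted at the unadjusted threshold, so the shares of adjusted calls given above are not a background for these counts. The median log2 fold change was -0.12, and 58 of the 60 were below 0, against 2976 of all 6150 genes. In 23 of the 60 every dgk1Δ library lay below every WT library, which held for 7.19% of all genes. The range ran from -0.29 (NOC4, adjusted p = 0.181) to 0.03 (NOP56, adjusted p = 0.949). NOC4, a small-subunit assembly protein, had 138, 134 and 129.9 CPM in dgk1Δ against 178, 149 and 164 CPM in WT. These libraries did not overlap. Once the length trend had been removed NOC3 was called lower (adjusted p = 0.0234), in a fit that called 38 of all genes lower, against 17 before. The medians were -0.12 for small-subunit, -0.13 for large-subunit and -0.05 for shared factors.

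Set directly against dgk1Δ, pah1Δ had 41 of the 60 factors lower and 0 higher, with a median log2 fold change of -0.28. Among all genes 666 (10.8%) were called lower and 876 (14.2%) higher, and in 51 of the 60 every pah1Δ library lay below every dgk1Δ library, against 23.4% of all genes. This comparison shares its pah1Δ libraries with the one against WT. Scaling by library totals alone gave 25 of the 60 lower, and all genes then split into 1081 higher and 437 lower. Without pah1Δ replicate 1 the count was 24, and without dgk1Δ replicate 1 it was 25. All genes called lower went from 666 to 382 and 413 in these fits. With all libraries the counts were 14 of 23 small-subunit, 20 of 29 large-subunit and 7 of 8 shared factors. DBP2 differed most (-0.77, adjusted p = 6.11e-05), followed among the named members by RRP5 (-0.54, adjusted p = 0.00111) and NOP56 (-0.50, adjusted p = 0.000507), and RPF1 least (-0.04). PUF6, an RNA-binding assembly factor, fell by 0.48 (adjusted p = 0.000506). In the Mpp10 complex 0 of 3 were called. In all, 20 members were called lower in each of the 15 alternatives, among them DBP2, RRP5, NOP1, NOP56, UTP4, UTP20, ENP1, NOP7 and ERB1, and 13 were called in none.

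Beyond the 60, 92 other genes of ribosome assembly gave 65 lower and 0 higher in pah1Δ against WT, with a median of -0.35. By role, 33 of 43 small-subunit genes, 27 of 42 large-subunit genes and 5 of 7 box H/ACA and shared nucleolar ribonucleoprotein genes were lower. Without pah1Δ replicate 1 the count of 65 became 39, and that of all genes called lower went from 775 (12.6%) to 447. UTP23 (-0.56) and FAL1 (-0.55) fell most for the small subunit, SDA1 (-0.57) and ALB1 (-0.56) for the large subunit, and NSR1 (-0.58) and GAR1 (-0.52) among the ribonucleoprotein genes. In dgk1Δ against WT 0 of the 92 were lower and 4 were higher. These 4 were KRR1 (0.91), RRP7 (0.82) and SPB1 (0.98) on chromosome III and SQT1 (1.03) on chromosome IX. Gene copy number was not assessed, so more copies and more RNA per copy cannot be told apart for these 4 genes, in dgk1Δ against WT or in pah1Δ against dgk1Δ. None of the 60 factors lies on either chromosome. KRR1 had 315, 303 and 316 CPM in dgk1Δ against 173, 163 and 159.9 CPM in WT, without overlap.

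Of 8 genes for known regulators of this group or of ribosomal protein genes, 1 was called lower and 1 higher in pah1Δ against WT. In dgk1Δ against WT 0 of them were called. Among all genes tested the shares were 12.6% lower and 16.6% higher in pah1Δ against WT. In dgk1Δ against WT they were 0.276% lower and 1.64% higher. The regulators were thus not called more often than genes at large. TOD6, a repressor that binds the PAC element, fell by 0.29 on the log2 scale (adjusted p = 0.0331), and the call was lost without pah1Δ replicate 1 or 2 or WT replicate 2 or 3 (adjusted p = 0.0871 to 0.106), and also with library totals alone, with limma and with only the pair of genotypes fitted. It held in 7 of 15 alternatives. CRF1, a corepressor of ribosomal protein genes, rose by 0.58 (adjusted p = 0.0049) and was called in all 15 alternatives. DOT6, the partner of TOD6, gave 0.09 (adjusted p = 0.708), and STB3, which binds the RRPE element, gave 0.37 (adjusted p = 0.173). The activator SFP1 gave -0.08 (adjusted p = 0.656), the kinase SCH9 -0.34 (adjusted p = 0.0593), IFH1 -0.09 (adjusted p = 0.745) and FHL1 -0.24 (adjusted p = 0.333), and these were not called. Without WT replicate 1, SCH9 (adjusted p = 0.0125), IFH1 (0.00567) and FHL1 (0.00475) were called lower, and SCH9 also without pah1Δ replicate 3 (0.0245), with RLE factors, with DESeq2 and with the length trend removed, in 5 of 15 alternatives. With single libraries left out the values of DOT6 (-0.10 to 0.21), IFH1 (-0.32 to 0.05) and SFP1 (-0.17 to 0.0034) fell on both sides of 0. These are mRNA levels; the activity of the proteins was not measured.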

How the data were processed

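RNA was poly(A)-selected and sequenced in 9 libraries, 3 per genotype. The authors deposited 1 table with whole-number read counts per gene and FPKM values, per the file headers, and exonic gene sizes in bases. Per the submitters' processing notes HISAT2 2.2.1, HTSeq 0.6.1 and build R64 were used; annotation release, strand setting and handling of reads with several matches were not given in the sources used here, so copies and overlapping genes may share or lose reads. Of its lines 4 held nothing, and 0 columns belonged to other samples.

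The 60 members and all lists were chosen with earlier results of these data known. DBP4, of the other assembly genes, was matched by synonym. Counts were tested with edgeR 4.0.16 in R 4.3.3: filterByExpr, TMM factors, 1 quasi-likelihood fit over the 3 genotypes (6 residual degrees of freedom) and Benjamini-Hochberg adjustment over 6150 genes. Displayed deviations use log2 of the TMM-scaled CPM without a prior count. The trend with gene length and the correlations between same-numbered libraries use log2 CPM with a prior count of 2. The code was tested on simulated data. Alternatives were DESeq2 1.42.0, RLE factors, library totals alone, no filter, a filter at a mean of 10 CPM, a replicate block, a fit of just the 2 groups compared, a length trend removed by lowess with a span of 0.5, each replicate left out, and limma 3.58.1 on log2(FPKM + 1), whose fold changes understate low genes. The limma fit took FPKM as deposited, without TMM factors, so it shares scaling by library total with the fit on library totals alone. In pah1Δ against WT the median of all genes was 0.09 in both, so they are not separate checks of the scaling. Replicates were compared by chi-square over genes and no pair agreed within sampling noise.

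The members named are DBP2, RRP5, NOP58, the 2 with the largest called change in each role group in pah1Δ against WT, all not called, and any called in dgk1Δ against WT; others appear as ends of a range or, as with UTP22, RRP12, HAS1 and PUF6, beside a count, and were chosen after their values were seen. Upstream regions were read from the RefSeq genome of build R64, whose annotation here lists genes from the start codon, and searched on both strands. A further upstream sequence is not reported here.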

Additional observations from a re-analysis of the deposited data

How the results depend on the processing

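The median of members stayed below 0 in each comparison under each alternative run. The small- minus large-subunit median, which lay near 0, changed sign in each of the 3 comparisons when some libraries were left out. The count of members called lower in pah1Δ against WT (56) was 43 with limma on FPKM, 44 with library totals alone, 48 with the replicate block, 48 with only the 2 groups compared, 54 with a mean CPM of at least 10, 56 with no filter, 57 with DESeq2 or RLE factors and 59 with the length trend removed, and 47 to 56 with 1 library left out. The median of members moved from -0.41 to -0.33 with library totals alone and -0.32 with limma, with -0.44 to -0.40 over left-out libraries. The median in pah1Δ against dgk1Δ moved from -0.28 to -0.22 in both of these, with -0.32 to -0.26 over left-out libraries. That comparison's count of 41 was 25 with library totals alone and 26 with limma, and 24 to 39 with 1 library left out. Other assembly genes lower in pah1Δ against WT numbered 65, and 42 with limma, with 39 to 69 over left-out libraries. All genes called lower in that comparison numbered 775. They became 462 with limma, 480 with library totals alone, 447 without pah1Δ replicate 1 and 1148 with the length trend removed. In dgk1Δ against WT the count of 0 became 1 with the length trend removed and was 0 over left-out libraries, whose medians ran from -0.13 to -0.11. The small- minus large-subunit median ran over left-out libraries from -0.04 to 0.08 in pah1Δ against WT, from -0.01 to 0.07 in dgk1Δ against WT and from -0.03 to 0.06 in pah1Δ against dgk1Δ. The cause of these shifts was not tested.

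Same-numbered libraries of pah1Δ and WT had correlations of their deviations of -0.39, -0.67 and 0.52. For dgk1Δ and WT these were 0.03, 0.55 and -0.42, and for pah1Δ and dgk1Δ -0.01, -0.55 and -0.43. The labels do not say that a number marks a shared culture or day. Each library's trend with gene length enters these correlations, so they cannot tell whether the numbers pair the samples. With the replicate block the members called lower were 48 in pah1Δ against WT, 32 in pah1Δ against dgk1Δ and 0 in dgk1Δ against WT. All genes called lower fell as well, from 775 to 583, from 666 to 490 and from 17 to 15 in the same order. Against WT it ended the calls of IMP3, IMP4 (adjusted p = 0.0871), UTP7, UTP22, NOP13, RRP8 (0.0587), NOP15 and RLP24, and that of TOD6 among the regulators.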
